A study of Mus musculus with 6 samples.

Results

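The V1 sector of the vacuolar ATPase was followed through 9 of its subunit genes, chosen by name: Atp6v1a, Atp6v1b2, Atp6v1c1, Atp6v1d, Atp6v1e1, Atp6v1f, Atp6v1g1, Atp6v1g2 and Atp6v1h. All 9 were measured among 16583 genes, through 11 transcript clusters (groups of probes read as 1 transcript) that the platform annotation ties to exactly 1 gene symbol. RNA came from 6 samples of Neuro2a, a mouse neuroblastoma cell line used as a model of neurons, hybridised to Affymetrix Mouse Gene 1.0 ST arrays. The 3 USFKD samples carried vectors for microRNA-type RNA interference against USF1 and USF2, and the 3 Control samples carried an empty vector. That each USFKD sample received the vectors for both targets together is a reading of the label. The interference vectors were of an EmGFP-miR plasmid system and were brought in with a lipid reagent. The USF proteins are transcription factors of the bHLH-zipper family, known to bind the E-box CACGTG. Each sample is a whole culture, so a change shared by all cells and a larger change in those cells that took up the vector cannot be told apart. The labels name 3 biological replicates a group but not the cultures behind them, so the errors given here reflect the scatter of these samples, part of which may be technical.

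The vacuolar ATPase is a rotary proton pump of lysosomes, endosomes, Golgi vesicles and, in neurons, synaptic vesicles, where the proton gradient drives transmitter loading. Its V1 sector lies in the cytosol and splits ATP, and its V0 sector carries protons across the membrane. In V1 the A and B subunits alternate in a head that binds ATP, the D and F subunits form the central stalk that turns inside it, the E and G subunits form peripheral stalks that hold it still, and the C and H subunits sit in the collar between V1 and V0. V1 can come off the membrane and rejoin it, which is a known way of regulating the pump.

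Values are relative log2 signals, each gene being centred on its own median over the 6 arrays, so a gene can be compared between arrays while its level, and its level against another subunit, is not known. Of the 9 genes 8 lay in the brighter of 2 signal classes (8 to 16 on the log2 scale before centring, read from how the numbers are rounded) and Atp6v1g2 lay in the dimmer one (4 to 8). Usf1 was at 0.682-fold (95% interval 0.612 to 0.761) and Usf2 at 0.770-fold (0.702 to 0.845) of Control, with all 3 USFKD arrays below all 3 Control arrays for each, and neither target passed an adjusted p of 0.05 over all genes (limma adjusted p = 0.32 and 0.348). Over all clusters the standard deviation was 0.159 on USFKD array 2 and 0.0531 to 0.0780 on the other arrays. Of the markers of neuroblastoma cells 8 of 10 measured (12 listed) were in the brighter class, while Dbh and Th were in the dimmer one. In the brighter class were 0 of 17 measured markers (21 listed) of glia, fibroblasts, blood, endothelial and epithelial cells. Of all 16583 genes tested 7320 were in the brighter class. The neuroblastoma markers had a median change of -0.06, and 6 of the 10 lay below 0, where 49.6% of all genes tested lay above it. At an unadjusted limma p under 0.05, 2 were lower (2.65% of all genes tested), Dbh at 0.842-fold and Elavl4 at 0.916-fold. By the same threshold 0 were higher (1.60%), and 0 passed over all genes. All USFKD arrays lay below all Control arrays for 3 of these markers (5.95% of all genes tested) and above them for 0 (4.33%). The 17 other-cell markers, all in the dimmer class, had a median change of 0.06, with medians of 0.03, 0.11 and 0.00088 on USFKD arrays 1, 2 and 3 relative to the Control mean. By the same measure all 9021 genes of the dimmer class had medians of -0.01, 0.09 and -0.03 on these arrays, and those of the brighter class had -0.00032, -0.04 and 0.0046. The part of either marker list in the results was not tested.

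The V1 genes showed no common direction, and none passed the test over all genes. In the USFKD samples the head subunits Atp6v1a and Atp6v1b2 and the collar subunit Atp6v1c1 had the higher signals, the central stalk subunits Atp6v1d and Atp6v1f had the lower ones, and the peripheral stalk genes ranged between -0.07 (Atp6v1e1) and 0.03 (Atp6v1g1). The changes, USFKD minus Control, ran between -0.17 and 0.14 on the log2 scale, with a median of 0.03 against -0.00066 over all genes tested, and 5 were above 0 (49.6% of all genes tested) and 4 below. At an adjusted p of 0.05 in limma over all genes 0 of the 9 passed (adjusted p = 0.996 for each), where 1 gene, or 0.00603% of those tested, did. At an unadjusted limma p under 0.05 there were 2 higher (1.60% of all genes tested) and 1 lower (2.65% of all genes tested), or 3 in either direction (4.25% of all genes tested and 4.99% of those in the brighter class). These were Atp6v1a, Atp6v1b2 and Atp6v1d. All 3 USFKD arrays lay above all 3 Control arrays for 3 members (4.33% of all genes tested) and below them for 1 (5.95% of all genes tested). Over both directions the groups did not overlap for 10.3% of all genes and for 14.1% of those in the brighter class. For each of the 4 separated members, Atp6v1a, Atp6v1b2, Atp6v1c1 and Atp6v1d, an exact permutation test over the arrays (two-sided) gave p = 0.10. With 3 against 3 arrays every gene whose groups do not overlap gets this value, the lowest possible, so it adds nothing to the separation.

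**Figure D1:**
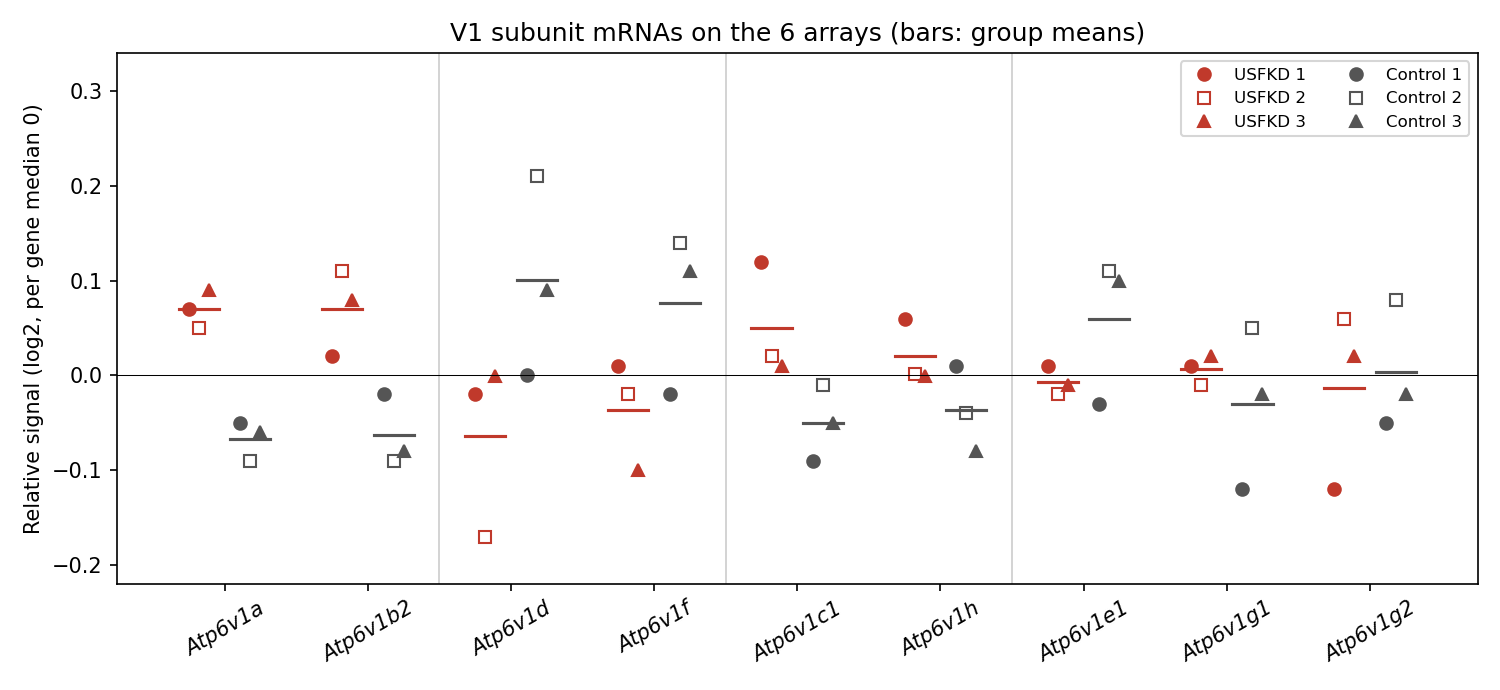
Relative log2 signal of the 9 V1 subunit genes (vertical axis) on each of the 3 USFKD arrays (red, left) and 3 Control arrays (grey, right); symbols mark the replicate number, bars the group means, and vertical lines separate head, central stalk, collar and peripheral stalk genes. The groups do not overlap for Atp6v1a, Atp6v1b2, Atp6v1c1 and, by under 0.001, Atp6v1d; for Atp6v1d, Atp6v1f and Atp6v1e1 the Control 1 circle lies with or next to the USFKD arrays, below the other Control arrays.

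Atp6v1a (cluster 10439566) encodes the catalytic A subunit, in which ATP is split. Its relative log2 signal was 0.07, 0.05 and 0.09 on USFKD arrays 1, 2 and 3, against -0.05, -0.09 and -0.06 on Control arrays 1, 2 and 3. Every USFKD array was above every Control array, and the arrays of a group lay within 0.031 (USFKD) and 0.0379 (Control) of each other. The group means were 0.07 ± 0.0155 in USFKD and -0.07 ± 0.0211 in Control (SD, n = 3 each). The change was 0.14 ± 0.04 (SE), or 1.10-fold with a 95% interval of 1.03 to 1.17 (limma adjusted p = 0.996). A change at least this high was found in 1.84% of all genes, and one at least this large in either direction in 4.81%.

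The promoter window of Atp6v1a is shown because it was the one V1 window, among those in the table used, that held the E-box CACGTG. It comes from RefSeq (GRCm38.p6, chr16:44139210-44139509, minus strand) and runs from 250 bases before to 50 bases after a transcription start, with CACGTG in capitals.
Atp6v1a: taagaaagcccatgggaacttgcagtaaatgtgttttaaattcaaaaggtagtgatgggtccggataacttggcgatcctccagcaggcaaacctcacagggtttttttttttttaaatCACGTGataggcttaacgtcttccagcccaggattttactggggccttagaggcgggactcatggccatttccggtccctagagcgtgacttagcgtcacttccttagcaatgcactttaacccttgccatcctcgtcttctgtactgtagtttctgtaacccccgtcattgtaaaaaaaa
The motif begins 131 bases before the start and is flanked by T and A, which gives the longer palindrome TCACGTGA. Being palindromes, both forms read the same on both strands, and every longer form contains the shorter. CACGTG occurs in 7.15% of the 32851 windows of the table and TCACGTGA in 0.974%.

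Atp6v1b2 (cluster 10572146) encodes the B subunit that most tissues use, the partner of A in the ATP-binding head. Its signal was 0.02, 0.11 and 0.08 on USFKD arrays 1, 2 and 3, against -0.02, -0.09 and -0.08 on Control arrays 1, 2 and 3. The groups did not overlap, and their nearest values were those of USFKD array 1 and Control array 1. The change was 0.13 ± 0.04 (SE), or 1.10-fold with a 95% interval of 1.02 to 1.18 (limma adjusted p = 0.996). The A and B genes differed little in their pattern: Atp6v1a minus Atp6v1b2 was 0.05, -0.05 and 0.01 on the USFKD arrays and -0.03, -0.0032 and 0.03 on the Control arrays. Without Control array 2, and likewise without Control array 3, the change of Atp6v1b2 was 0.12 and its unadjusted limma p was no longer under 0.05. Atp6v1a stayed at an unadjusted p under 0.05 in each of the 6 fits without 1 array, with changes of 0.13 to 0.15.

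Atp6v1d (cluster 10401138), which encodes the shaft of the central stalk, had the largest change of opposite sign to the head genes. Its signal was -0.02, -0.17 and -0.0004 on USFKD arrays 1, 2 and 3, against 0.0004, 0.21 and 0.09 on Control arrays 1, 2 and 3. All USFKD arrays were below all Control arrays, but USFKD array 3 and Control array 1 were almost level, and the lowest and highest values were those of USFKD array 2 and Control array 2. The group means were -0.07 ± 0.0939 in USFKD and 0.10 ± 0.103 in Control (SD, n = 3 each). The change was -0.17 ± 0.07 (SE), or 0.891-fold with a 95% interval of 0.798 to 0.996 (limma adjusted p = 0.996). Without USFKD array 2 it was -0.11 and without Control array 2 also -0.11, in both cases with an unadjusted limma p above 0.05, whereas without Control array 1 it was -0.22. An unadjusted limma p under 0.05 was kept in 2 of the 6 fits without 1 array.

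The window of Atp6v1d is shown beside that of Atp6v1a as the member with the largest change of the opposite sign. It is also from RefSeq (GRCm38.p6, chr12:78861589-78861888, minus strand) and holds no CACGTG, so it has no capitals.
Atp6v1d: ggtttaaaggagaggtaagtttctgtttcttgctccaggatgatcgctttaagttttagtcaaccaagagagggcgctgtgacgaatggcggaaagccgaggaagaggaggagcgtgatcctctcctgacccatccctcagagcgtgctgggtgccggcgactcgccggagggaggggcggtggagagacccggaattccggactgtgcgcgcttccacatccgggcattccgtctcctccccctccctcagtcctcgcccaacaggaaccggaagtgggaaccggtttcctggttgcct
No match says only that these letters are not in this window.

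Atp6v1f encodes the F subunit, which binds D in the central stalk. Averaged over its 2 clusters its signal was 0.01, -0.02 and -0.10 on USFKD arrays 1, 2 and 3, against -0.02, 0.14 and 0.11 on Control arrays 1, 2 and 3. The groups overlapped, because Control array 1 lay among the USFKD arrays. The change was -0.11 ± 0.06 (SE), or 0.925-fold with a 95% interval of 0.844 to 1.01 (limma adjusted p = 0.996). Clusters 10452874 and 10536895 list the same transcripts and gave changes of -0.13 and -0.10, and signal from a near-identical copy of the gene could not be told apart in either. Without Control array 1 the change was -0.16, and without Control array 2 or USFKD array 3 it was -0.08.

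Head and central stalk can be set against each other within an array, since a ratio of 2 genes does not depend on the brightness of the array as a whole. The mean of Atp6v1a and Atp6v1b2 minus the mean of Atp6v1d and Atp6v1f was 0.05, 0.18 and 0.13 on USFKD arrays 1, 2 and 3, against -0.03, -0.27 and -0.17 on Control arrays 1, 2 and 3. It was higher on each USFKD array than on each Control array, and the smallest gap, between USFKD array 1 and Control array 1, was small beside the spread among the Control arrays. The difference was put together after the values were seen, from genes chosen for changes of opposite sign, so it is a description and carries no test. Ratios of signals do not give the ratio of the proteins.

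**Figure D2:**
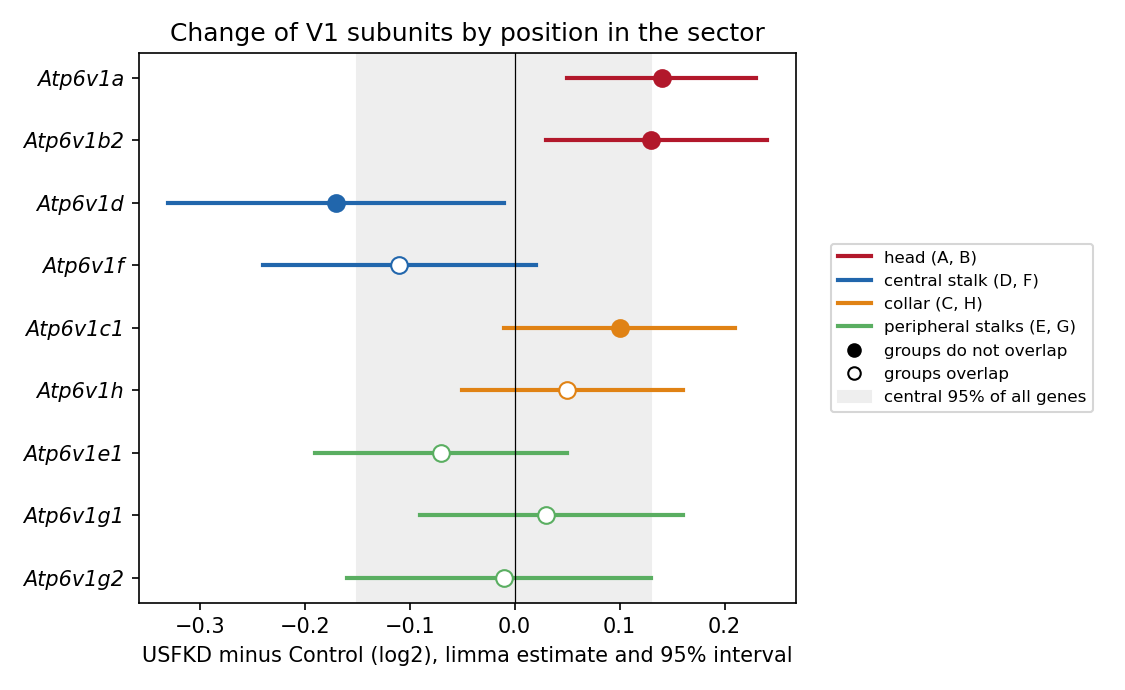
Change of each V1 subunit gene, USFKD minus Control on the log2 scale (horizontal axis), with its 95% interval from limma, coloured by position in the sector; filled points mark genes whose groups do not overlap, and the grey band holds the central 95% of all genes tested (-0.15 to 0.13). Atp6v1a at 0.14 lies above the band and Atp6v1d at -0.17 below it, with Atp6v1b2 at 0.13 drawn on its upper edge. Only Atp6v1a, Atp6v1b2 and Atp6v1d have an interval that leaves out 0.

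The collar genes had changes of the same sign as the head genes. Atp6v1c1 (cluster 10423805) encodes the widely used C subunit, which ties the peripheral stalks to V0 and in yeast is released when V1 comes off the membrane. Its signal was 0.12, 0.02 and 0.01 on USFKD arrays 1, 2 and 3, against -0.09, -0.01 and -0.05 on Control arrays 1, 2 and 3. The groups did not overlap, with USFKD array 1 standing above the other USFKD arrays. The change was 0.10 ± 0.05 (SE), or 1.07-fold with a 95% interval of 0.993 to 1.16 (limma adjusted p = 0.996), and it was 0.07 without USFKD array 1. Atp6v1h (cluster 10344637) encodes the H subunit, which in yeast keeps free V1 from splitting ATP. Its signal was 0.06, 0.0011 and -0.0011 on USFKD arrays 1, 2 and 3, against 0.01, -0.04 and -0.08 on Control arrays 1, 2 and 3. Control array 1 lay above USFKD arrays 2 and 3, so the groups overlapped. The change was 0.05 ± 0.04 (SE), with a 95% interval of 0.967 to 1.11-fold, and it was 0.03 without Control array 3.

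The peripheral stalk genes showed no common direction. Atp6v1e1 (cluster 10547521) encodes the E subunit found in most tissues. Its signal was 0.01, -0.02 and -0.01 on USFKD arrays 1, 2 and 3, against -0.03, 0.11 and 0.10 on Control arrays 1, 2 and 3. The USFKD arrays lay close together, while Control array 1 lay below them and the other Control arrays above. The change was -0.07 ± 0.05 (SE), with a 95% interval of 0.879 to 1.03-fold, and it was -0.11 without Control array 1 and -0.04 without Control array 2.

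Of the G subunits, G1 is widely expressed and G2 is mainly neuronal. Atp6v1g1 had 0.01, -0.01 and 0.02 on USFKD arrays 1, 2 and 3, against -0.12, 0.05 and -0.02 on Control arrays 1, 2 and 3. All USFKD arrays lay inside the range of the Control arrays. The change was 0.03 ± 0.05 (SE), with a 95% interval of 0.940 to 1.11-fold, and its sign turned to -0.01 without Control array 1. Its clusters 10482330 and 10505461 list the same transcripts and gave 0.03 and 0.04. As for Atp6v1f, signal from a near-identical copy of the gene could not be told apart in either. Atp6v1g2 (cluster 10444756), the one member in the dimmer class, had -0.12, 0.06 and 0.02 on USFKD arrays 1, 2 and 3, against -0.05, 0.08 and -0.02 on Control arrays 1, 2 and 3. Its groups overlapped widely, with USFKD array 1 the lowest of the 6 arrays. The change was -0.01 ± 0.06 (SE), with a 95% interval of 0.898 to 1.09-fold, and it was 0.04 without USFKD array 1 and 0.02 without Control array 2. The intervals of both G genes reach 0.13 or more on the log2 scale, about the change of the head genes, so a lack of change was not shown.

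Control array 1 lay below the other Control arrays in several members, though in Atp6v1d it was Control array 2, at 0.21, that lay furthest from the others. In Atp6v1a, Atp6v1b2 and Atp6v1h, by contrast, Control array 1 was the highest Control array, at -0.05, -0.02 and 0.01. On Control array 1 Atp6v1d, Atp6v1f and Atp6v1e1 lay at 0.0004, -0.02 and -0.03, against 0.09 to 0.21 on the other Control arrays. These values were within the range of the USFKD arrays or next to it. Relative to the Control mean the central stalk genes averaged -0.09, -0.18 and -0.14 on USFKD arrays 1, 2 and 3, and -0.10, 0.09 and 0.01 on Control arrays 1, 2 and 3. The head genes averaged 0.11, 0.15 and 0.15 on the USFKD arrays and 0.03, -0.02 and -0.0041 on the Control arrays by the same measure. Each USFKD average of the head genes was above each Control average, whereas for the central stalk genes Control array 1 lay between USFKD arrays 1 and 3. The number of V1 genes at an unadjusted limma p under 0.05 was 5 without Control array 1 (4.70% of all genes tested in the same fit), 2 of them higher (1.56%) and 3 lower (3.14%). It was 1 without Control array 2 (2.61% of all genes) and 1 without Control array 3 (2.23%), and Atp6v1a was the gene left in both.

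**Figure D3:**
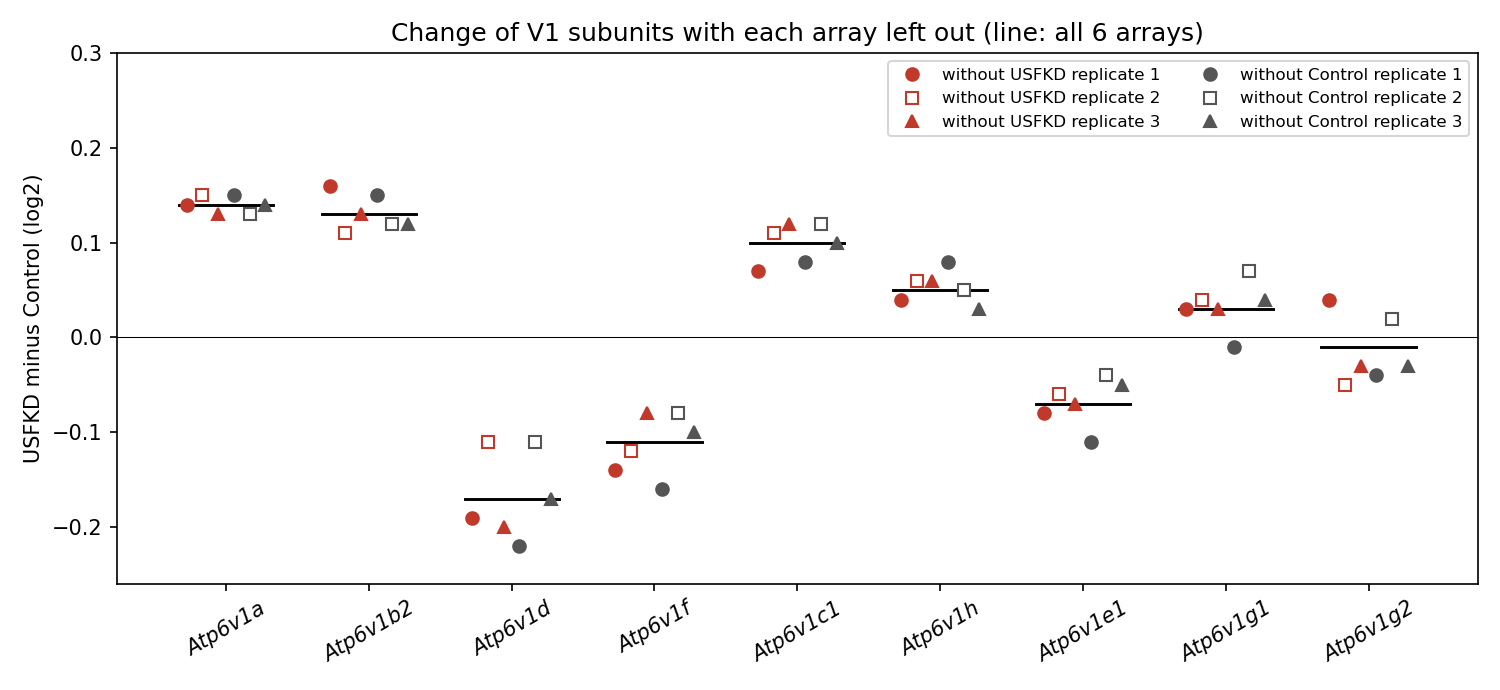
Change of each V1 subunit gene, USFKD minus Control on the log2 scale (vertical axis), with all 6 arrays (black line) and with 1 array left out (red, a USFKD array; grey, a Control array; symbols give the replicate number). Atp6v1a keeps to 0.13 to 0.15, Atp6v1d spreads over -0.22 to -0.11, and only Atp6v1g1 and Atp6v1g2 have values on both sides of 0.

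The rest of the pump gave a setting for the V1 genes. Of the V0 and accessory genes, 10 measured of 12 listed, 9 changes were above 0 (49.6% of all genes tested) and 1 below, with a median of 0.05. They ran from -0.0035 to 0.12 with standard errors of 0.04 to 0.07, so several were near 0. At an adjusted p of 0.05 in limma over all genes 0 passed. At an unadjusted limma p under 0.05 there was 1 higher (1.60% of all genes tested) and 0 lower (2.65%). This was Atp6v0b, a proton-carrying subunit of the membrane ring, with 0.08, 0.07 and 0.02 on USFKD arrays 1, 2 and 3, against -0.10, -0.08 and -0.02 on Control arrays 1, 2 and 3 (change 0.12 ± 0.04, SE). The other V1 isoforms, known mainly from kidney, lung and testis (Atp6v1b1, Atp6v1c2, Atp6v1e2 and Atp6v1g3), had a median change of 0.05, 3 of the 4 were in the dimmer class, and 0 were at an unadjusted limma p under 0.05. The one with the smallest p was Atp6v1e2 (0.08 ± 0.08, SE).

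Of the genes for assembly and regulation of the pump, 12 measured of 13 listed, 4 changes were above 0 (49.6% of all genes tested) and 8 below, with a median of -0.03. At an unadjusted limma p under 0.05 there was 0 higher (1.60% of all genes tested) and 1 lower (2.65%), and 0 passed over all genes. The lower one was Ncoa7, a TLDc-domain protein that binds the pump, with -0.05, -0.11 and -0.02 on USFKD arrays 1, 2 and 3, against 0.09, 0.02 and 0.04 on Control arrays 1, 2 and 3 (change -0.11 ± 0.04, SE). It lay in the dimmer class.

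The E-box was then read across the pump. Of the 9 V1 genes 5 had a window in the promoter table, of which 1 held CACGTG (Atp6v1a) and 4 did not (Atp6v1d, Atp6v1e1, Atp6v1f and both windows of Atp6v1g2). Atp6v1b2, Atp6v1c1, Atp6v1g1 and Atp6v1h were not searched. Of the V0 and accessory genes measured, 9 had a window and 3 of them held it: Atp6v0b, Atp6v0d1, which links the central stalk to the ring, and Atp6v0e, a small membrane subunit. For all 4 of these V1 and V0 genes every USFKD array lay above every Control array, with changes of 0.14 in Atp6v1a, 0.12 in Atp6v0b, 0.08 in Atp6v0d1 and 0.06 in Atp6v0e. Of the 10 V1 and V0 genes with a window and no CACGTG, 0 had all USFKD arrays above and 1, Atp6v1d, had all of them below. The 4 other V1 isoforms are not in this count. Their windows held no CACGTG, and their groups overlapped. The other 3 V1 and V0 genes with all USFKD arrays above, Atp6v1b2, Atp6v1c1 and Atp6v0a2, a membrane subunit (0.06 ± 0.04, SE), had no window and were not searched, so whether they hold the motif is not known. Among assembly and regulation genes 1 of 3 with the motif had all USFKD arrays above, Ccdc115, an assembly factor of the early secretory pathway (0.08 ± 0.04, SE), and Tbc1d24 (-0.03) and Vma21 (-0.04) did not. The longer form TCACGTGA was held by Atp6v1a, Atp6v0d1 and Atp6v0e, and also by Vma21.

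Over all genes with a window, the USFKD arrays were all above the Control arrays for 7.0% of the 1385 genes with CACGTG and 4.12% of the 11686 without, and all below for 9.17% and 5.81%. These shares were not tested against each other. The median change was -0.0033 with it and -0.0012 without. Of the 229 genes tested with TCACGTGA, 6.11% were higher and 5.24% lower at an unadjusted limma p under 0.05 (1.60% and 2.65% of all genes tested), which was not tested either. The pairing of motif and separation in the pump was looked at after the values were seen, on few genes, and is given as a description with no test. A motif match is not a binding site and does not tell which protein would bind there. The windows cover 300 bases around the starts in the table only.

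**Figure D4:**
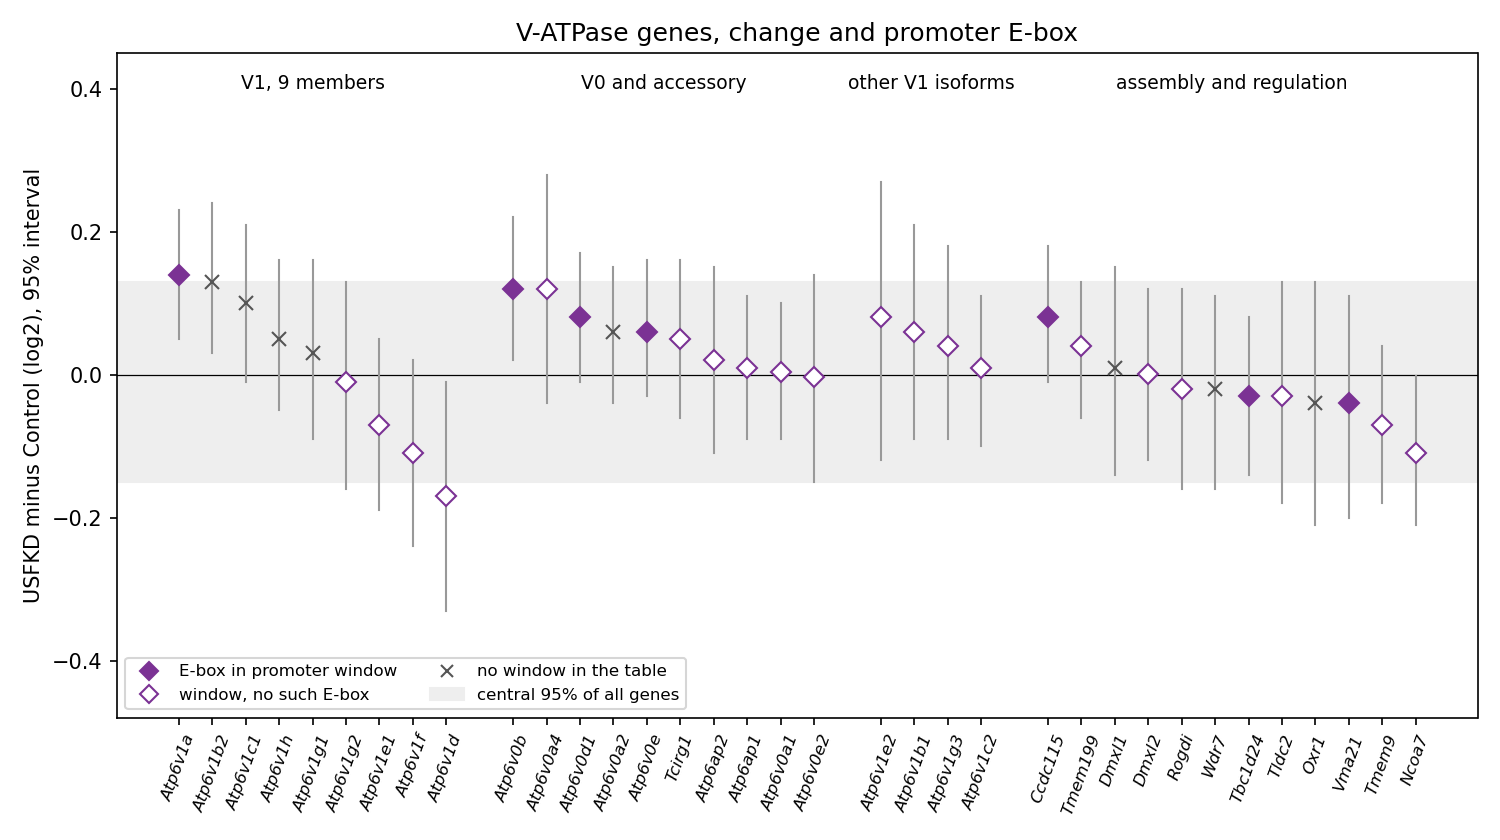
Change of V-ATPase genes, USFKD minus Control on the log2 scale with 95% intervals from limma (vertical axis), in 4 groups and ordered by size within each; filled diamonds have CACGTG in a promoter window, open diamonds have windows without it, crosses have no window in the table, and the grey band holds the central 95% of all genes (-0.15 to 0.13). The filled diamonds of the V1 and V0 groups, Atp6v1a, Atp6v0b, Atp6v0d1 and Atp6v0e, are all above 0, while those of the assembly group lie on both sides. The intervals of Atp6v0d1 and Atp6v0e include 0.

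The genes whose pattern over the 6 arrays was nearest to a V1 gene were found by the root mean square difference of centred signals. Nearest to Atp6v1a were Ctsb (0.0164), Fkbp11 (0.0184) and Ten1 (0.0194), against a median of 0.0988 over all other genes. The nearest V1 gene was Atp6v1b2 (0.0341), in place 72 of all genes. Nearest to Atp6v1d were Adipor2 (0.0162), Morn2 (0.0185) and Gm13375 (0.0226), against a median of 0.131. There the nearest V1 gene was Atp6v1e1 (0.0751), in place 816. The nearest genes to both were thus from outside the pump, and how near genes come on 6 arrays by noise was not tested.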

How the data were processed

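One table was deposited, with 22891 transcript clusters and 6 columns. Its values are read here as log2 signals, since the deposited numbers are rounded as numbers from 4 to 16 would be. The median of each cluster is 0 within 5e-07. No source used here names the background correction or normalization. The rounding step also gave the signal class (tolerance 0.15 of a step), which may place a few clusters wrongly. Of the clusters 18087 had 1 gene symbol in the platform annotation, 1145 several and 3659 none; clusters of a gene were averaged, which gave 16583 genes.

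Changes are USFKD minus Control, fitted on all genes with limma 3.58.1 (lmFit, eBayes; R 4.3.3; 4 residual and 3.79 prior degrees of freedom) with Benjamini-Hochberg adjustment over all genes. Precision is limited by the few arrays, with a median standard error of 0.06. The exact permutation p of 3 against 3 arrays cannot go below 0.10. Promoter windows came from RefSeq, GRCm38.p6. Named genes are the 9 members, Usf1, Usf2, genes of the pump lists at an unadjusted p under 0.05 or else the smallest p, the nearest genes by pattern, and, chosen after their values were seen, the pump genes with the E-box. Members and lists were chosen with earlier results of these data known. Correlations of same-numbered arrays' deviations from their group means were 0.003, 0.082 and 0.036. Those of arrays with unlike numbers ran from -0.094 to 0.053. Whether same-numbered samples were handled together cannot be decided from so few arrays, so the main fit used no pairing. Alternatives were 3 scalings, leaving out each array, the replicate block, other variance and weight settings, the brighter class alone and single clusters.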

Additional observations from a re-analysis of the deposited data

How the results depend on the processing

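Over 14 alternatives, 124 of 127 values for the V1 genes or their clusters kept their sign. Many of these could not turn. The replicate block, the trended and robust variance and the brighter class alone leave the change of a gene as it was. So do single clusters for a gene with only 1. All alternatives also reuse the same 6 arrays, so the count does not measure stability. Sizes shifted more, with Atp6v1d between -0.22 and -0.11, and with adjusted p = 0.996 for each member a value that stays above 0.05 says nothing about stability. The sign turned for Atp6v1g2 without USFKD array 1 (0.04) and without Control array 2 (0.02), and for Atp6v1g1 without Control array 1 (-0.01); without 1 array these genes ranged over -0.05 to 0.04 and -0.01 to 0.07. With array quality weights, of which USFKD array 1 took 33 against 0.136 and 0.441 for USFKD arrays 2 and 3, Atp6v1a (0.14, limma adjusted p = 0.0184) and Atp6v1c1 (0.16, limma adjusted p = 0.0227) passed, 7 V1 genes were at an unadjusted p under 0.05 (26.3% of all genes) and 1111 genes passed in all, so the USFKD mean there was in effect 1 array. The number of V1 genes at an unadjusted p under 0.05, 3 with all arrays, was 1 to 5 without 1 array (2.23% to 7.53% of all genes), and their median change was -0.01 to 0.05. The number of genes past the adjusted threshold, 1 with all arrays, was 0 to 1 without 1 array, 0 with arrays scaled to equal spread, 0 with the replicate block and 6 with trended and robust variance, where the trend runs on centred means and not on levels. The replicate block left 2 V1 genes at an unadjusted p under 0.05 (3.84% of all genes). The cause of these shifts was not tested. Without levels, what background signal hides in the dimmer gene Atp6v1g2 is not known.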
